A study of Mus musculus with 2 samples.

Results

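Albumin, apolipoproteins, fibrinogen and the enzymes of the urea cycle are made in hepatocytes, and their genes are here called liver effector genes. The methylation of 8 such genes was described in the epiblast of the mouse embryo at embryonic day 6.5, a stage at which no liver exists. They were chosen by name as widely known liver genes, with earlier results of these data known. They are 8 of 20665 autosomal protein-coding genes in the annotation used. Alb, Fgb and Serpina1a encode plasma proteins, Apoa1 and Apob encode the protein parts of lipoproteins, and Tat, Cps1 and G6pc encode metabolic enzymes. Each was measured at both gene ends, through the gene body (except Apoa1, which is too short) and in windows of 1 kb out to 10 kb on either side.

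The series measured DNA methylation by whole-genome bisulfite sequencing of wild-type (WT), XX epiblasts of strain C57Bl6/J, from natural matings and with no culture of the embryos. Epiblasts were cut away by hand from the tissue around them, which served to sex the embryos by PCR, and libraries were made by a bisulfite method designed for very little DNA. The group holds 2 samples. The counts came as a single table with no column per sample, so there is no replicate error, no test between groups and no p-value. The table's name gives WT, embryonic day 6.5 and female but no sample number, and it is taken here as the pool of both samples. On the autosomes 89.9% of 20383623 CpGs had a read, the median depth was 6 reads per CpG, and 66.3% of read counts were methylated. Elf5, a trophoblast transcription factor gene whose promoter is known to be methylated in embryonic cells and unmethylated in trophoblast, was methylated at its start, at 77.1% of 245 read counts. Other tissues of the embryo were not checked in this way.

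Methylation of cytosine in CpG pairs is a mark that is copied when cells divide. The genome loses most of it before implantation and regains it in the epiblast. Promoters rich in CpGs usually escape this regain, whereas promoters poor in CpGs take part in it. Many genes of differentiated cells have promoters poor in CpGs. Liver effector genes are known to lose methylation near their starts as the liver forms. Bisulfite sequencing does not tell methylcytosine from hydroxymethylcytosine. An intermediate level may come from a part of the cells, from a single allele or from a part of the molecules, and these cannot be told apart here.

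Levels are methylated read counts as a percent of all read counts in a region, both strands added. Parentheses hold the exact binomial (Clopper-Pearson) interval at 95%. It covers counting error only, and since a read can cover several CpGs and copies of a read may have been kept, it may be too narrow. All coordinates are mm10. A region was called high where the whole interval lay above 60%, low where it lay below 20%, intermediate where it lay between these bounds, and unresolved otherwise.

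The promoters of 5 members are shown. Each runs 5′ to 3′ on the gene's own strand from 250 bases before the RefSeq transcript start to 50 bases into the transcript, with every CpG in capitals (RefSeq, GRCm38.p6).
Alb, chr5:90460620-90460919, plus strand: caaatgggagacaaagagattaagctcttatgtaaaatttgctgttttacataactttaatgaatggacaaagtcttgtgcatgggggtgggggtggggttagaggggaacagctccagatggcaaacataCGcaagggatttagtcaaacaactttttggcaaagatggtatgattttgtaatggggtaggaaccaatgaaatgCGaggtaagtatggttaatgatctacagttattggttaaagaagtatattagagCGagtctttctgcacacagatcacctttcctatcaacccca
Apoa1, chr9:46228380-46228679, plus strand: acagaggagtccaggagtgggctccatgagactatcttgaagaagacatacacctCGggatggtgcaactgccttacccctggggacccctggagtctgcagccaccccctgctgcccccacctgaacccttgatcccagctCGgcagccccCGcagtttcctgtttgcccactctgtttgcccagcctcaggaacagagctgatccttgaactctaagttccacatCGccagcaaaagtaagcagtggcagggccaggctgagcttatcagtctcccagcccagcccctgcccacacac
Apob, chr12:7977427-7977726, plus strand: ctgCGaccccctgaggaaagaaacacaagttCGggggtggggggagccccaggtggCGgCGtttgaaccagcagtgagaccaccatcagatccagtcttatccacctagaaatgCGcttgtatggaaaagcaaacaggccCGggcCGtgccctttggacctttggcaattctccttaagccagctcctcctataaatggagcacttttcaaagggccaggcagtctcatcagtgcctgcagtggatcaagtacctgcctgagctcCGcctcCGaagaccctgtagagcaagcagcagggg
Tat, chr8:109990186-109990485, plus strand: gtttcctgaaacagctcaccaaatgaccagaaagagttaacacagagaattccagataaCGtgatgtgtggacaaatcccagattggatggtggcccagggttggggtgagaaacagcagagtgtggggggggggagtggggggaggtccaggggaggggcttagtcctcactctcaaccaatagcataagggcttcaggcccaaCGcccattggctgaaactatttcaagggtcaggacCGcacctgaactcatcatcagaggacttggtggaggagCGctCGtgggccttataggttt
G6pc, chr11:101367466-101367765, plus strand: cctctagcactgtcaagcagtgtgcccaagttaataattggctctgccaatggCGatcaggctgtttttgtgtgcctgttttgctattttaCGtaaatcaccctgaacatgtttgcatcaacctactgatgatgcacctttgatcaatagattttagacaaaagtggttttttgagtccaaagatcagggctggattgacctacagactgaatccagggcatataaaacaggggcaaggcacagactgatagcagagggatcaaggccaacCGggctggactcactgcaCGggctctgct

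The promoter table held 7 of the 8 members, all but Cps1. These 7 promoters held 3 to 9 CpGs, with 3 in Alb and 9 in Apob, and the other five held 4 or 5. Across all 32851 promoters in the table the median was 7 CpGs, with an interquartile range of 3 to 20. The half-site of the liver factor HNF1, GTTAAT on either strand, was present in 4 of the 7 (Alb, Fgb, Serpina1a and G6pc) and in 7.10% of all promoters. TATAAA, the core of the TATA box, was searched on either strand and was present in 2 of the 7 (Apob and G6pc) and in 13.6% of all promoters. These matches describe letters only, and neither share over all promoters is matched for CpG number.

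The promoters with more than 3 read counts ranged from 55.8% to 86.7%. The highest were those of the enzyme genes and Serpina1a. In Tat, 26 of 30 read counts over its 5 CpGs were methylated (86.7%, 69.3% to 96.2%). The CpGs 45 and 10 bases before the start were methylated in 3 of 3 and 6 of 6 reads, and those at bases 29 and 33 of the transcript in 4 of 4 reads each. In G6pc, 40 of 49 read counts over 4 CpGs were methylated (81.6%, 68.0% to 91.2%), with single CpGs between 68.8% and 92.9%. Serpina1a was at 15 of 18 read counts (83.3%, 58.6% to 96.4%).

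The lowest were those of both apolipoprotein genes and Fgb. In Apob, 36 of 59 read counts over 9 CpGs were methylated (61.0%, 47.4% to 73.5%). The 7 CpGs before its transcript start ranged from 33.3% to 66.7% on 3 to 8 reads each, and the pair just inside the transcript was at 10 of 13 reads each. In Apoa1, 22 of 38 read counts over 4 CpGs were methylated (57.9%, 40.8% to 73.7%). The Apoa1 CpG 23 bases before the start was methylated in 8 of 15 reads. In Fgb the 5 CpGs had 24 of 43 read counts methylated (55.8%, 39.9% to 70.9%). The intervals of the 6 promoters named so far all overlap, and their order was not tested. Alb had only 3 read counts over its promoter, 1 of them methylated, and no level is drawn from it.

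Over the wider start window of 1 kb on either side of the gene end, every member was mostly methylated. The 7 members with an annotated strand ranged from 60.4% to 83.6%, with a median of 68.2%. The windows held 14 to 45 CpGs. Of these starts 4 were called high, 0 low, 0 intermediate and 3 unresolved. Among 15539 measured autosomal starts 19.5% were called high and the median was 14.1%, but that median window held 65 CpGs. Among the 4345 starts with 14 to 45 CpGs, 54.6% were called high and the median was 70.1%. The members' share therefore lies close to that of other genes with as few CpGs.

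**Figure D1:**
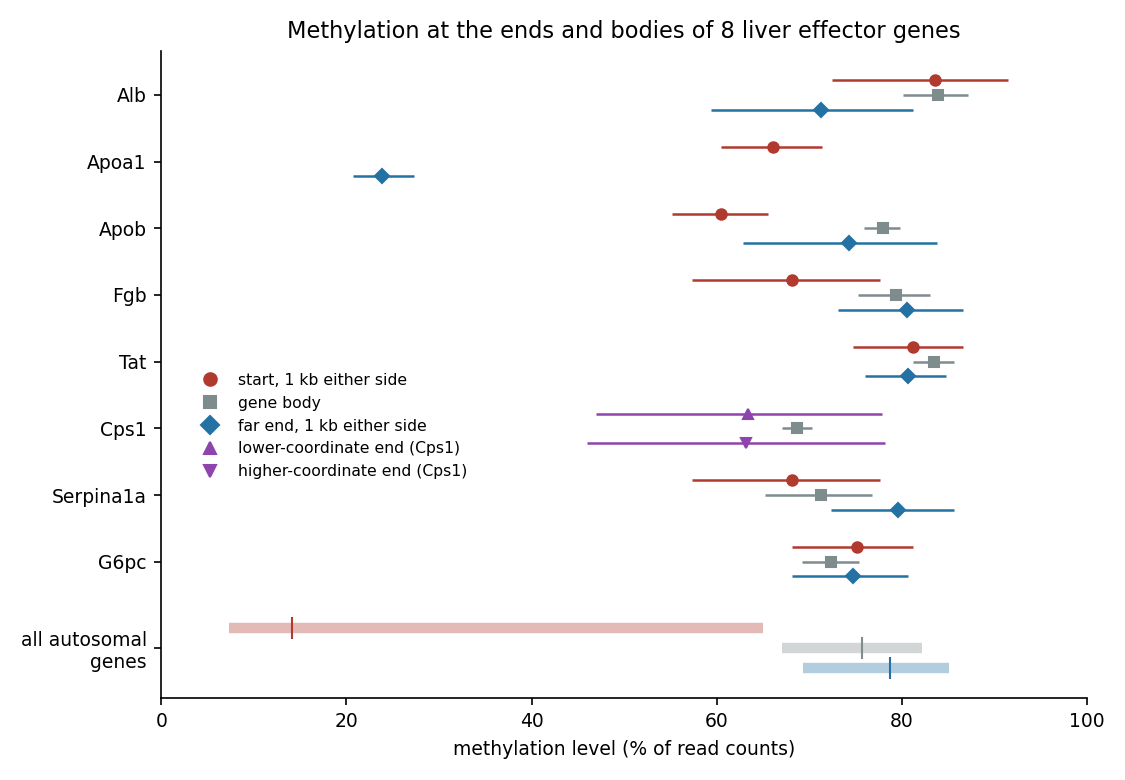
Methylation level (horizontal axis, percent of read counts) of the start window, gene body and far-end window of each member, with bars for the 95% counting interval. The lowest row gives the median (tick) and interquartile range (band) over all measured autosomal protein-coding genes. The 7 starts lie between 60.4% and 83.6%, and the far end of Apoa1, at 23.9% over 54 CpGs, is the lowest member value.

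Among the plasma protein genes, Alb, the gene of the main carrier protein of plasma, had the highest level at the start and in the body, and the lowest at the far end. At its start (chromosome 5, 90459870 to 90461870) 56 of 67 read counts over 19 CpGs were methylated, or 83.6% (72.5% to 91.5%). Its gene body was at 83.9% (80.2% to 87.1%) over 459 read counts, and its far end was at 71.2% (59.4% to 81.2%) over 73 read counts. The 3 intervals overlap, and the start interval also overlaps those of Fgb and Serpina1a. Depth was low before the start. The 1 kb outward of it was at 65.2% (42.7% to 83.6%), and the 500 bp next to it had 3 read counts.

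Fgb, the gene of the beta chain of fibrinogen, from which clots are made, was unresolved at its start (chromosome 3, 83048863 to 83050863). There 60 of 88 read counts were methylated, or 68.2% (57.4% to 77.7%), and 14 of 19 CpGs had a read. Its body was at 79.4% (75.3% to 83.1%) and its far end at 80.6% (73.1% to 86.7%). The start was the lowest of the 3, with an interval that overlaps both others.

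Serpina1a, which encodes an alpha-1 antitrypsin, an inhibitor of neutrophil elastase, also had 60 of 88 read counts methylated at its start, 68.2% (57.4% to 77.7%; chromosome 12, 103862619 to 103864619). Its body was at 71.3% (65.2% to 76.8%), and its far end was at 79.6% (72.3% to 85.7%). Mouse carries near-identical copies of this gene side by side. Reads that fit several copies cannot be placed with certainty, and only 42 of the 54 CpGs in the Serpina1a body had a read, so its values are uncertain.

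The lipoprotein genes had the lowest levels among the 7 start windows, but the intervals of both overlap those of Fgb and Serpina1a. In the 1 kb outward of the start alone, Apob was at 70.9% (62.9% to 78.0%), above Fgb at 67.3% and Alb at 65.2%. Apoa1 encodes the main protein of high-density lipoprotein. Its start (chromosome 9, 46227630 to 46229630) was at 66.1% (60.5% to 71.4%), with 201 of 304 read counts methylated over 26 CpGs. Within 500 bp on either side it was at 57.0% (47.1% to 66.5%), which changed the call from high to unresolved, as did plus strand reads alone (63.0%), leaving out the deepest CpGs (64.8%) and the outward 1 kb alone (61.8%). Apob encodes the structural protein of very-low-density and low-density lipoprotein. At its start (chromosome 12, 7976629 to 7978629) 217 of 359 read counts were methylated, or 60.4% (55.2% to 65.5%), over 45 CpGs. Its body was higher, at 78.0% (76.0% to 79.9%) over 1797 read counts, and the intervals of start and body do not overlap. Within 500 bp of the Apob start the level was 52.3% (45.5% to 59.0%), called intermediate. The Apob start differed between strands, with 51.9% (43.8% to 59.98%) from plus strand reads and 67.0% (60.1% to 73.4%) from minus strand reads.

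Each of the 7 members with an annotated start was then set beside other starts with nearly its number of CpGs. Apob had the most CpGs of the members. Among the 541 other autosomal starts with 42 to 48 CpGs, the median was 26.4% with an interquartile range of 17.3% to 52.3%, and 20.9% of them were at or above the level of Apob. For Tat, with 35 CpGs, the 711 other starts within 3 CpGs had a median of 60.8%, and 12.4% were at or above its level. For Alb, with 19 CpGs, 9.76% of 1270 other starts were at or above it. Their median was 73.4%, which lies within the Alb interval of 72.5% to 91.5% on 67 read counts, so the rank of Alb is uncertain. Apoa1 (63.3%), Fgb (69.8%), Serpina1a (67.9%) and G6pc (40.3%) had larger shares of such starts at or above their level. These shares describe ranks within this table.

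**Figure D2:**
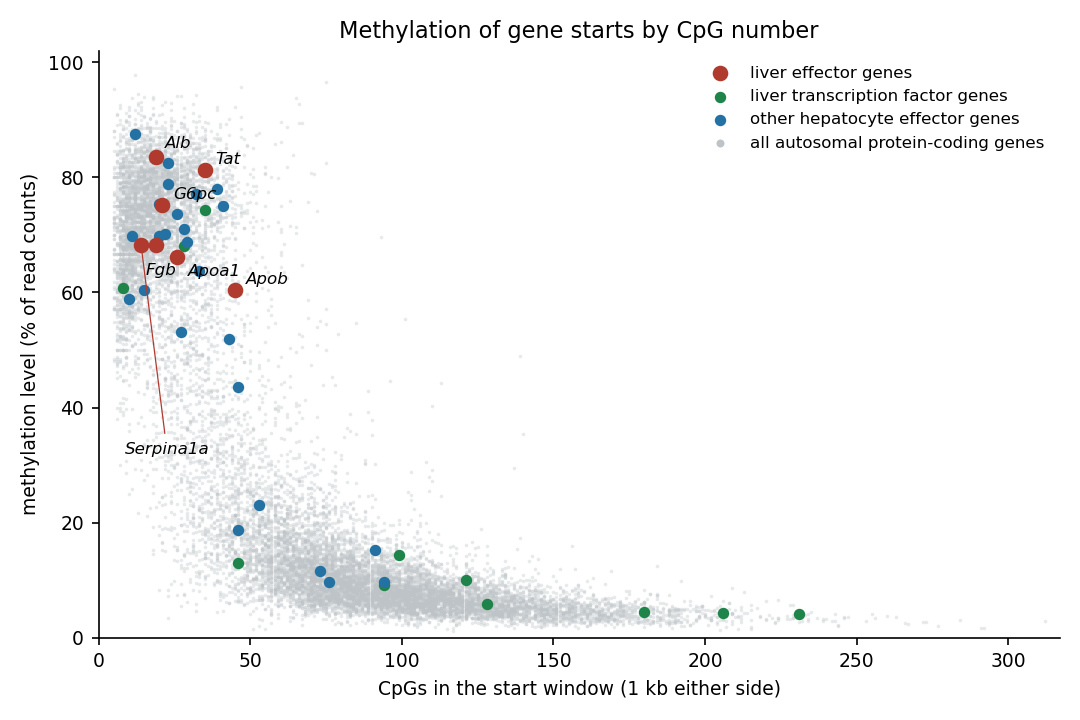
Methylation level (vertical axis, percent of read counts) of each start window against its number of CpGs (horizontal axis), with members in red, other hepatocyte effector genes in blue, liver transcription factor genes in green and all measured autosomal starts in grey. The members lie at 14 to 45 CpGs and 60.4% to 83.6%, and the levels of all starts fall steeply with rising CpG number.

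The enzyme genes with an annotated start were called high. Tat, tyrosine aminotransferase, carries out the first step of tyrosine breakdown. At its outermost gene end (chromosome 8, 109985078 to 109987078) 147 of 181 read counts were methylated, or 81.2% (74.8% to 86.6%). The transcript start of the promoter shown above lies inside that gene, at 109990436, and the window around it was at 87.0% (80.4% to 92.0%) over 146 read counts. The Tat body (83.5%, 81.2% to 85.7%) and far end (80.7%, 76.1% to 84.8%) were alike high. G6pc, the catalytic subunit of glucose-6-phosphatase, releases glucose in the last step of gluconeogenesis. It was at 75.1% (68.2% to 81.3%) at its start (chromosome 11, 101366716 to 101368716), 72.4% (69.2% to 75.4%) in its body and 74.7% (68.1% to 80.6%) at its far end. The 3 values of G6pc lie within each other's intervals.

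Cps1, the mitochondrial enzyme of the first step of the urea cycle, had no strand in the tables used, so its ends are given by coordinate. The lower-coordinate end (chromosome 1, 67121426 to 67123426) was at 63.4% (46.9% to 77.9%) with 41 read counts over 13 CpGs. The higher-coordinate end (67230267 to 67232267) was at 63.2% (46.0% to 78.2%) with 38 read counts over 8 CpGs. Both are unresolved at this depth. Its body, the longest of the set, was measured over 3341 read counts at 68.7% (67.1% to 70.3%), the lowest body of the 7. Apoa1 is too short to have a body between its end windows.

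Gene bodies were called high in 7 of 7, beside 79.6% of 17724 autosomal bodies. Their levels ran from 68.7% in Cps1 to 83.9% in Alb with a median of 78.0%, beside a median of 75.7% (interquartile range 67.1% to 82.2%) over all bodies. Of the other bodies, 18.7% were at or above Alb, 19.9% at or above Tat and 71.8% at or above Cps1. In windows of 1 kb along the genes, Alb (15 windows), Tat (14), G6pc (11) and Fgb (8) had 0 under 60%. Apob had 3 of 34 under 60%, Serpina1a 2 of 9, Cps1 20 of 89 and Apoa1 1 of 2. In all, 26 of 182 windows inside the members (14.3%) were under 60%, beside 11.2% of 868453 windows inside all autosomal protein-coding genes. Of these 26, 20 lay in Cps1 alone, so the pooled share mostly reflects that gene. The lowest Cps1 windows were at 16.7% and 31.0%, on only 12 and 29 read counts.

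Far ends were called high in 5 of 7, beside 72.3% of 15334 autosomal far ends, whose median was 78.7%. Of the other members, Alb was unresolved, and Apoa1 was intermediate at 23.9% (20.7% to 27.4%; chromosome 9, 46229469 to 46231469), with 156 of 653 read counts methylated over 54 CpGs. Within 500 bp of that end the level was 13.0% (10.1% to 16.5%), which is called low. The start and the far end of this short gene, whose windows overlap slightly, were at 66.1% and 23.9%, with intervals far apart. Its far-end window held 54 CpGs, beside 26 at its start and a median of 21 over all autosomal far ends. No comparison with far ends of like CpG number was made.

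The Apoa1 low stretch was bounded by its single CpGs. A run of 41 neighboring CpGs, each under 50%, extended over 973 bp (chromosome 9, 46229844 to 46230816), from 1214 to 2186 bp after the gene start and across the far end. Over the run 48 of 499 read counts were methylated, or 9.62% (7.18% to 12.6%). The last CpG before the run was at 9 of 13 reads (69.2%) and the first CpG in it at 3 of 25 (12.0%). On the other side, the first CpGs beyond it were at 8 of 13 (61.5%) and 9 of 13 (69.2%). No annotated transcript start of the promoter table lies within 500 bp of the run. Depth in the whole far-end window was 12.1 read counts per CpG, and its level was 27.0% from plus and 21.6% from minus strand reads.

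Apob had a smaller dip inside its first part. The bin from 1000 to 1500 bp after the gene start had 20 of 78 read counts methylated (25.6%) over 9 CpGs, between bins at 58.8% and 67.0%. A run of 5 CpGs, each under 50%, lay from 959 to 1138 bp after the start (chromosome 12, 7978588 to 7978767), at 8 of 46 read counts or 17.4% (7.82% to 31.4%). Runs of 5 or more such CpGs were sought in all 8 genes and 10 kb on either side after the values had been seen. There were 6, with 1 each at Apoa1, Apob, Tat and G6pc, 2 at Fgb and 0 at Alb, Cps1 and Serpina1a. Thus 5 of the 8 genes had a run, beside 80.1% of all 20665 autosomal protein-coding genes, whose median was 2 runs.

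**Figure D3:**
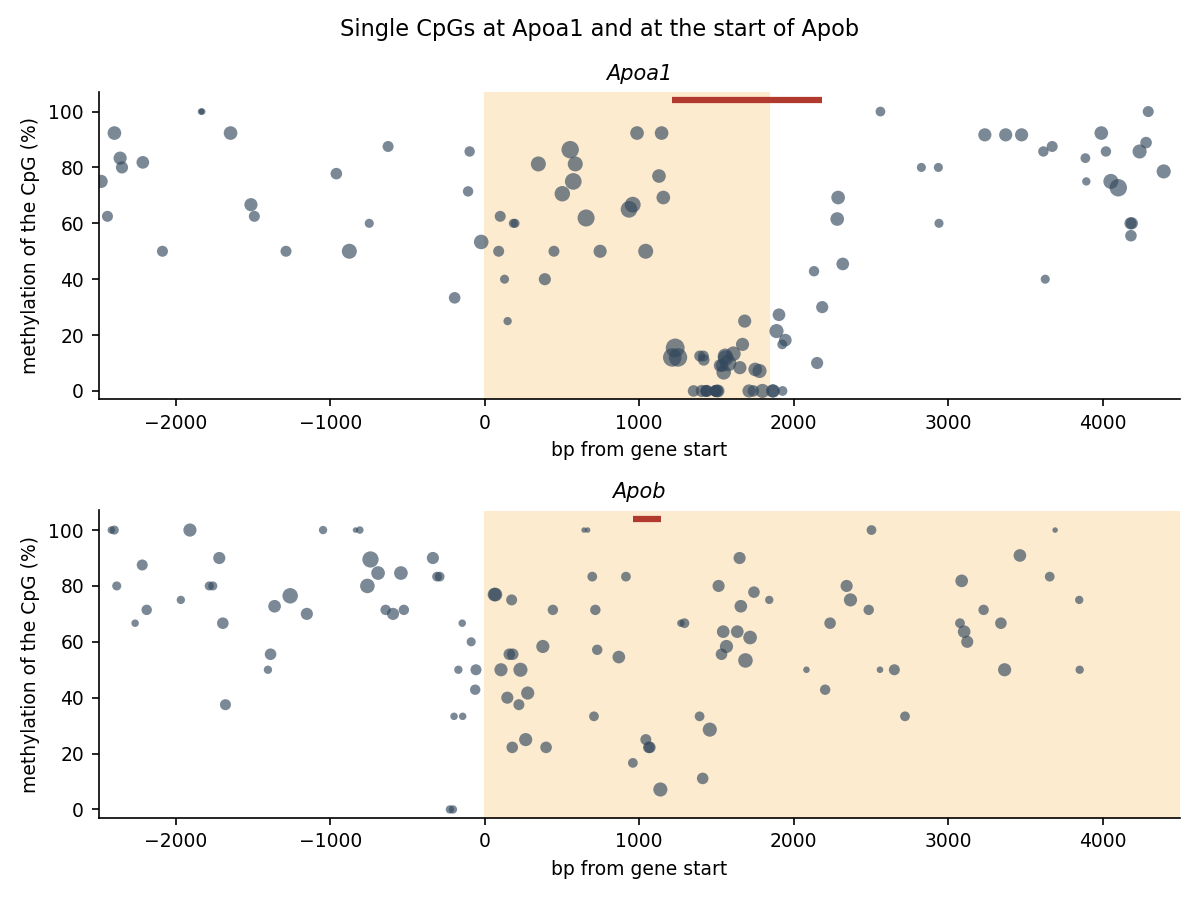
Methylation of single CpGs (vertical axis, percent) by distance from the gene start (horizontal axis, bp) at Apoa1 and at the first part of Apob, with point area growing with the number of reads. Shading marks the gene and red bars mark runs of 5 or more neighboring CpGs under 50%, which span 1214 to 2186 bp in Apoa1 and 959 to 1138 bp in Apob.

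Around the genes, 146 of 160 flanking windows of 1 kb were measured. Their median was 74.1%, and 18 of them (12.3%) were under 60%, beside 20.2% of 355996 such windows around all autosomal protein-coding genes and a median there of 75.4%. In 9 of the 18 the whole interval lay under 60%. Alb had 0 of 17 windows under 60% and Serpina1a 0 of 18. Apoa1 had 2 of 20, Apob 2 of 17, Cps1 2 of 15, Tat 3 of 20, G6pc 4 of 19 and Fgb 5 of 20.

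The lowest flanking window lay at the start of a neighboring gene. Between 4 and 7 kb upstream of Fgb, 3 windows in a row were at 38.0%, 2.59% and 33.0%. The middle window (chromosome 3, 83054864 to 83055863) had 14 of 541 read counts methylated over 64 CpGs and contains the start of Plrg1, a broadly expressed splicing factor gene. The run of low CpGs there spanned 1389 bp and 79 CpGs at 4.39% (2.96% to 6.24%). Without these 3 windows, 15 of 143 were under 60%. At 7 to 10 kb upstream the Fgb flank was again high, reaching 92.2%. The first window downstream of Apoa1, at 32.7% (25.2% to 40.9%), holds the outer part of the low run described above.

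Fewer reads support the other low flanks. G6pc had a run of 7 CpGs at 28 of 77 read counts (36.4%, 25.7% to 48.1%) over 504 bp upstream, from -5239 to -4736 bp of its start (chromosome 11, 101362477 to 101362980). Tat had 5 CpGs at 4 of 35 read counts (11.4%, 3.20% to 26.7%) in a stretch of 99 bp downstream of the gene (chromosome 8, 110003107 to 110003205). Downstream of Fgb a run of 5 CpGs over 64 bp, inside the neighboring Fga gene, was at 29.6% (19.3% to 41.6%). No annotated transcript start of the promoter table, which lacks some genes, lies within 500 bp of these 3 runs. G6pc also had a downstream window at 32.1% (15.9% to 52.4%), with 9 of 28 read counts methylated.

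**Figure D4:**
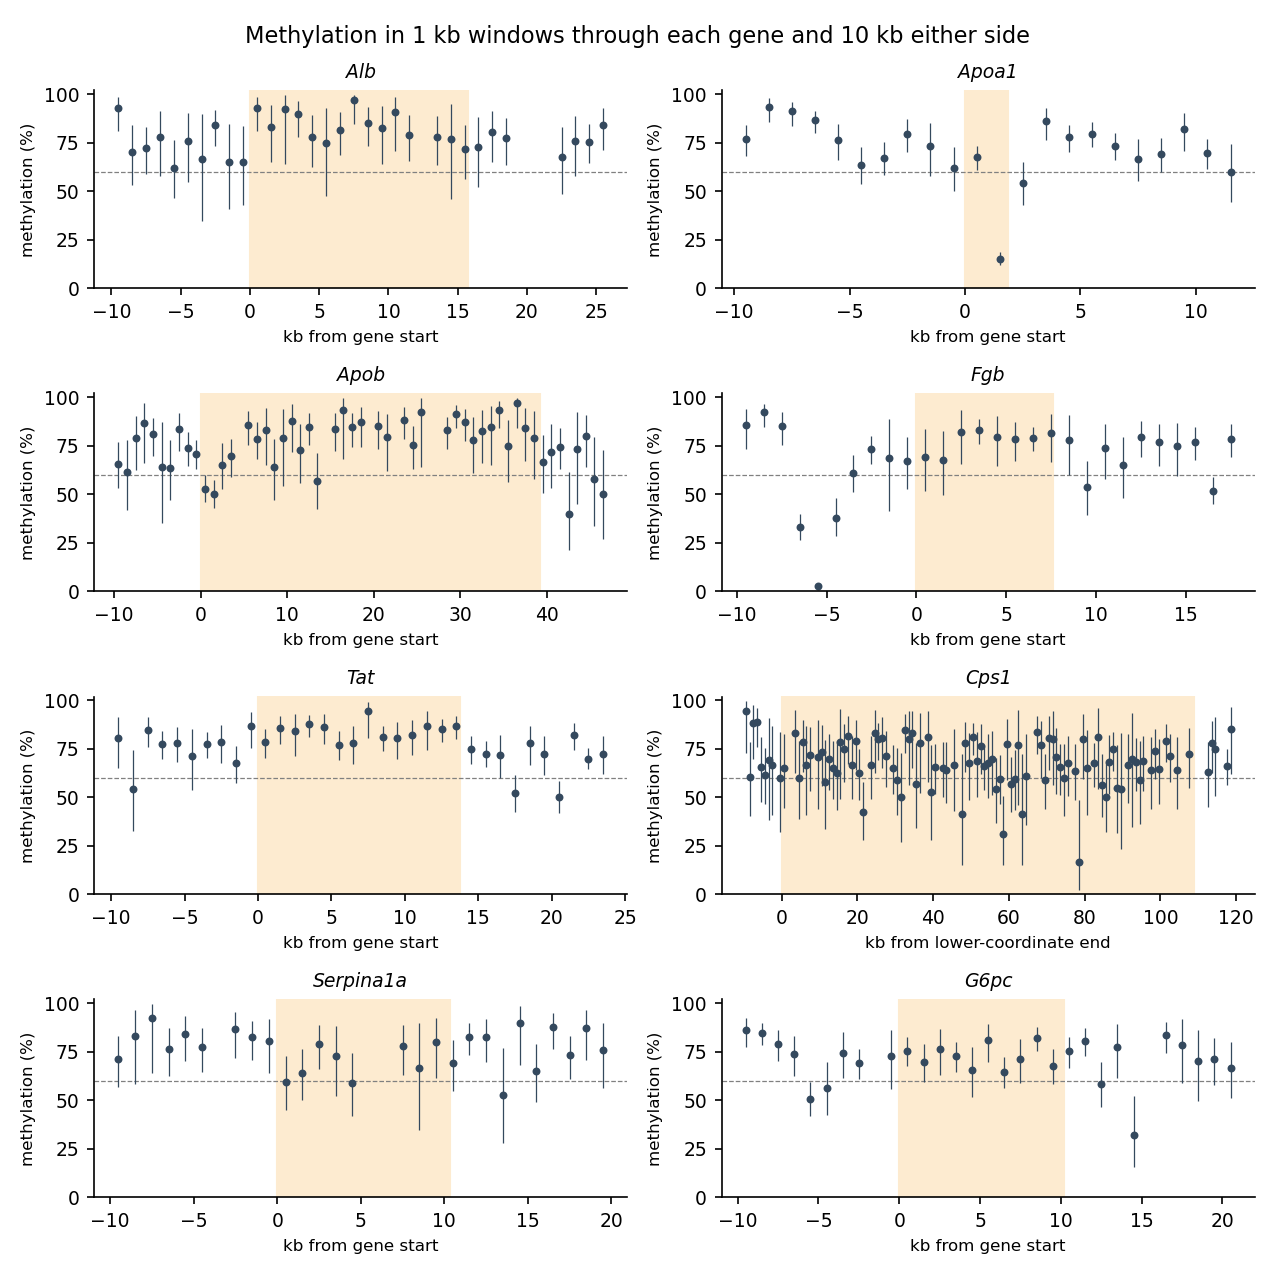
Methylation (vertical axis, percent of read counts, with 95% counting intervals) in windows of 1 kb counted from the gene start (for Cps1 from its lower-coordinate end), through each gene (shaded) and 10 kb on either side (horizontal axis, kb). The dashed line marks 60%, and the lowest points are the Plrg1 start upstream of Fgb at 2.59% and the end of Apoa1 at 15.2%. Windows beyond the far end are counted from the start here and from the far end in the text, so their values differ.

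Several members lie in clusters of related liver genes, and the starts of those neighbors were alike mostly methylated. Of 14 neighbors, 11 had an annotated start, and 7 were called high and 4 unresolved, with 0 low. Their median was 72.0% with a range of 57.1% to 80.6%, and they held 13 to 30 CpGs. Among all autosomal starts with the members' CpG numbers, 54.6% were called high and the median was 70.1%. The neighbors' median therefore lies close to that of other starts with few CpGs. Next to Alb, the fetal albumin gene Afp was high at 72.0% and Afm unresolved at 74.0%. The vitamin D carrier gene Gc, of the same family but farther off on chromosome 5, was unresolved at 61.8%. Next to Apoa1, Apoa5 was high at 67.8% and Apoa4 unresolved at 64.0%, and both ends of Apoc3 were high, at 79.6% and 71.3%. Of the other fibrinogen chains, Fga was high at 71.3% and Fgg unresolved at 57.1%. The Serpina1 copies Serpina1b (80.6%), Serpina1c (77.7%), Serpina1d (77.8%) and Serpina1e (79.2%) were high, with the same doubt about shared reads as for Serpina1a. Serpina6 was at 68.9% and 80.1% and Serpina3k at 89.5% and 80.6% at their lower and higher ends.

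A wider list of 38 hepatocyte effector genes, 25 of them with an annotated start, was divided by CpG number. Of the 25, 12 were called high, 3 intermediate, 4 low and 6 unresolved, with a median of 68.8%. Of the 18 with at most 45 CpGs, the highest number among the members, 12 were high, 2 intermediate, 0 low and 4 unresolved. The lowest of the 18 was at 52.0%. Of the 7 with more CpGs, 0 were high, 1 intermediate, 4 low and 2 unresolved. Among all autosomal starts with the members' CpG numbers, 54.6% were called high. No such share was taken among all starts with more CpGs. The levels of all starts fall with rising CpG number, so the split was not shown to be particular to hepatocyte genes. The highest were Serpinc1, the antithrombin gene (87.5%), and the urate oxidase gene Uox (82.5%). The lowest were the retinol carrier gene Rbp4 (9.75%, 94 CpGs) and the urea cycle gene Ass1 (9.76%, 76 CpGs), followed by the tyrosine breakdown gene Fah (11.6%), the urea cycle gene Nags (15.2%), the gluconeogenesis gene Fbp1 (18.8%) and Apoa2 (23.0%).

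Most starts of transcription factor genes that act on liver genes were called low. Of 15 on the list, 11 had an annotated start, and 8 of the 11 were called low, beside 54.1% of all autosomal starts. All 8 had more than 45 CpGs, and their median was 7.56%. Of the 3 with at most 45 CpGs, 2 were high and 1 unresolved. The 11 starts held a median of 99 CpGs, beside 65 over all autosomal starts, so the 54.1% is not matched for CpG number. The share called low among all starts with more than 45 CpGs was not taken. Cebpb (4.08%, 231 CpGs) and Cebpa (4.26%, 206 CpGs), which encode C/EBP factors, were lowest. Hnf4a, a nuclear receptor gene, was highest at 74.4% with 35 CpGs, followed by the bile acid receptor gene Nr1h4 at 68.1% with 28 CpGs.

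Effector genes of other tissues were measured in the same way for comparison. The median start of the 7 liver effector genes was 68.2% and that of 16 striated muscle genes was 66.9%. Of the muscle genes 7 were high, 3 intermediate, 1 low and 5 unresolved. The myoglobin gene Mb (85.1%) and the myosin gene Myh4 (77.3%) were highest, and Actn2 (16.6%, 57 CpGs) and Mybpc2 (28.6%, 45 CpGs) were lowest. Of the globin genes 4 starts were measured, with 0 high, 1 intermediate and 3 unresolved. Hbb-y was at 63.2%, Hba-x at 57.1%, Hba-a2 at 42.5% and Hba-a1 at 31.2%, the last pair being near-identical copies with reads at 11 of 29 CpGs each. Hbb-bh1 had no annotated strand. Its lower-coordinate end was high at 79.4% and its higher-coordinate end unresolved at 73.2%. Hbb-bt and Hbb-bs had only 19 and 17 read counts at their starts, too few to be measured. No test of a difference between these lists was run.

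**Figure D5:**
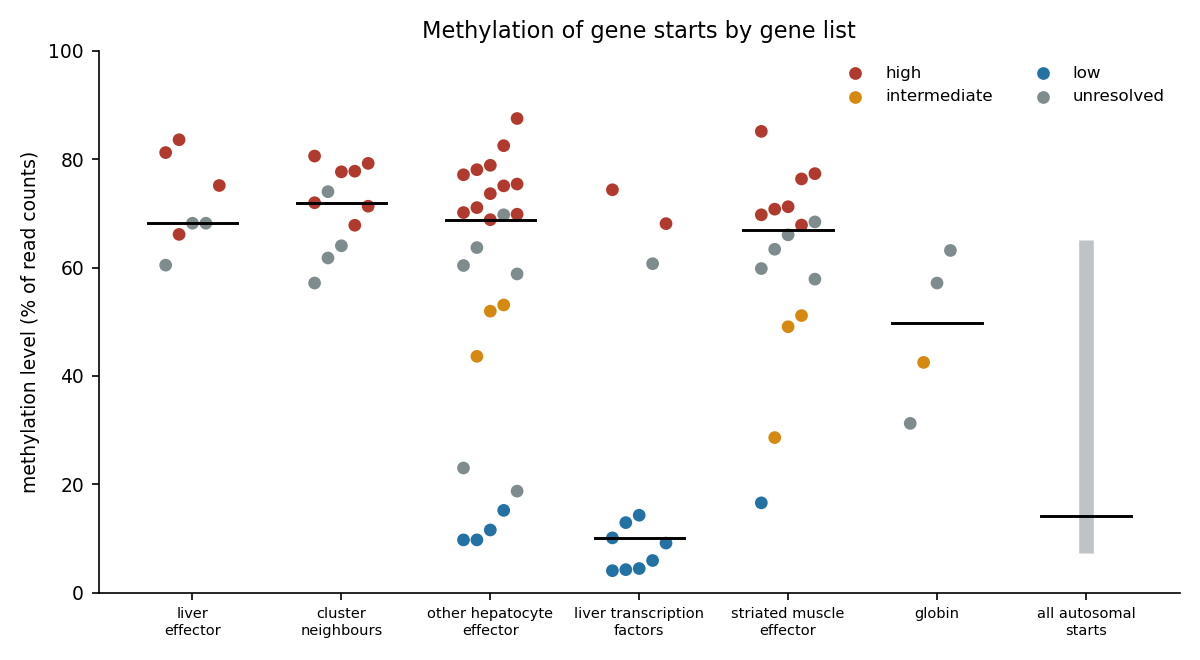
Methylation level (vertical axis, percent of read counts) of each measured start by gene list (horizontal axis), colored by call, with a black line for the median. The last column gives the median and interquartile range over all measured autosomal starts. The members' median is 68.2% and that of the transcription factor genes is 10.1%.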

How the data were processed

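The deposited values are read counts: for each strand of each CpG, a methylated and an unmethylated count, in a table laid out as a Bismark report. The submitters' processing notes name mm10, cutadapt 1.3, Bismark 0.12.5 and Bowtie2 2.1.0 without roles. Whether and how the samples were pooled, and whether duplicates were removed, is not given in the sources used here. Duplicates and regions where reads map poorly can change depth and level.

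Counts of both strands were summed and divided per region with Python 3.11.15, NumPy 2.4.6, pandas 2.3.3 and SciPy 1.17.1. Gene ends and bodies (without 1000 bp at each end) needed 5 CpGs with a read and 20 read counts, flanking windows 3 and 10. Gene positions came from RefSeq (GRCm38.p6). Strands came from its promoter table, and genes without one have no start here. Window sums and calls were checked on simulated counts. The members and lists were chosen with earlier results of these data known. Named were all members and cluster neighbors, the 2 highest and 2 lowest starts of other lists, and the 6 lowest effector starts. Alternatives varied depth, summary, strand, window and threshold.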

Additional observations from a re-analysis of the deposited data

How the results depend on the processing

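The median start level of the members lay between 64.8% and 71.5% under 8 alternatives. The count of starts called high was 2 when high meant an interval above 70%, and 7 when the level alone had to exceed 60%, also as a mean of CpG fractions. It was 3 under 5 others, and 4 with minus strand reads alone or at the transcript start, not always for the same genes. Apoa1 lost its call in 4 of these, Alb and G6pc in the outward 1 kb, where Apob and Serpina1a gained it. With minus strand reads Alb lost its call and Apob gained it, and at 5 reads per CpG Alb was not measured. The median body level was 74.96% as a mean of CpG fractions and 74.2% over whole genes, which brings in Apoa1. Flanking windows under 50% numbered 10 of 146. Shares over all autosomal protein-coding genes were taken at the main setting only. At that setting, starts with the members' CpG numbers had a median of 70.1%, with an interquartile range of 51.2% to 77.9%. Of 55 single start levels of the members, 9 left the main interval. Of these, 4 were for Apob, which ranged from 51.9% to 70.9%. The Alb start ranged from 65.2% to 84.4%. The window at the RefSeq transcript start, the Apoa1 and Cps1 ends and the flanks without Plrg1 were added after the data were seen. With 1 table, taken as pooled, no sample could be left out. No paired analysis was possible because the counts have no column per sample. Alb and Cps1 are limited by depth.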
